A study of Antirrhinum majus with 21 samples.

Results

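Corolla RNA of 3 snapdragon plants (*Antirrhinum majus*) labelled ROSji7_ELstr was compared with that of 3 plants labelled rosstr_ELstr. These 6 libraries, chosen by their genotype labels, are part of 21, from 7 genotypes with 3 plants each. ROSji7_ELstr plants are labelled eluta, and all came from family A172. They carried the dominant ROS allele of the laboratory line JI7 with the dominant EL allele of the wild yellow subspecies *A. m. striatum*. White-flowered rosstr_ELstr plants carried the recessive ros allele and the dominant EL allele of *striatum*, and all came from family A182. Both groups thus carried EL of *striatum*, and the allele that differs by label is that of ROS. The other genotypes served for levels beside the comparison. Magenta ROSji7_elji7 plants had dominant ROS and recessive el of JI7, and magenta ROSpse_elpse plants had dominant ROS and recessive el of *A. m. pseudomajus*. ROSpse_ELstr plants, labelled eluta, had dominant ROS of *pseudomajus* and dominant EL of *striatum*. Pale rosrec_elpse plants had recessive el of *pseudomajus* and a recombinant ros allele, *striatum* upstream and *pseudomajus* downstream. White rosdor_eldor plants had recessive ros and el of the stock line rosea-dorsea. The labels give 1 allele at each locus and no zygosity, and each library is 1 plant. Corollas came from stage 12 to 13 buds, 5 to 10 mm in length, of plants kept on outside benches, and the RNA was read as 50 bp single-end reads.

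ROS (ROSEA) and EL (ELUTA) are closely linked loci of snapdragon. ROS holds genes for MYB transcription factors that switch on the magenta anthocyanin pathway in petals, and recessive ros alleles give pale or white flowers. Dominant EL limits where the magenta pigment appears in the corolla. The comparison asks which transcripts differ between a JI7 and a *striatum* ROS allele while EL is of the same origin. The files do not pair gene IDs with names, so genes are given by ID, without a role, and the corolla and cell type markers could not be checked.

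Totals ran from 28184787 to 34106209 estimated reads in the ROSji7_ELstr libraries and from 28433136 to 41860890 in the rosstr_ELstr libraries. Spearman's rho across genes was 0.952 to 0.977 between plants of a group, and a chi-square comparison of their counts gave 30.7 to 110 per degree of freedom, so no library was a copy of another. By their library numbers, ROSji7_ELstr replicate 3 belonged to a low series and rosstr_ELstr replicate 1 to a high series, and the other 4 libraries to a middle series. No other genotype came from family A172, so family and genotype cannot be told apart and no fit with family as a term could be made. One plant outside the comparison, rosdor_eldor replicate 3, came from the white plants' family A182 and is given beside the results that it touches. In such bulk tissue, fewer cells of a type and less RNA per cell cannot be told apart.

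Of 24674 genes tested, 291 (1.18%) were called at an edgeR adjusted p under 0.05. In ROSji7_ELstr, 134 of them (0.543% of the genes tested) were higher and 157 (0.636%) were lower than in rosstr_ELstr. The median size of the log2 fold change was 1.85 among the higher and 2.74 among the lower genes, and 13 higher but 52 lower genes passed a size of 5. Many of the lower genes had few or no reads in ROSji7_ELstr. Of the 157 lower genes, 42 averaged under 0.1 CPM (read counts scaled to 1e6 per library) in ROSji7_ELstr, and 18 had no read in any of its 3 libraries. Of the 134 higher genes, 9 averaged under 0.1 CPM in rosstr_ELstr, and 4 had no read there. Of all 24674 genes tested, 401 averaged under 0.1 CPM in ROSji7_ELstr and 340 in rosstr_ELstr. In 290 of the 291 genes the libraries of the groups did not overlap, as was so in 24.6% of all genes tested. At an unadjusted p under 0.05 there were 3209 genes (13.0%).

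The number of calls fell when any 1 of the 6 plants was left out, which also makes a group smaller. Without ROSji7_ELstr replicate 1, 2 or 3 it was 76, 87 or 79, and without rosstr_ELstr replicate 1, 2 or 3 it was 142, 97 or 190. In the 4 libraries of the middle number series alone it was 65, of which 54 were among the 291. A core of 26 genes, 14 higher and 12 lower, was called in all 12 alternatives run, and 47 were called without any 1 of the 6 libraries. Of those 47, 8 lay on the sequence named ros_assembly.

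The sequence ros_assembly is named after the ROS locus, and 80 of the 125 genes placed on it were tested. The 11 called genes, 10 higher and 1 lower in ROSji7_ELstr, made up 13.8% of them, against 1.18% of all genes tested. The first and the last called gene lay at positions 50042 and 626533 of the JICv1 assembly, and 41 tested genes lay in the 576.5 kb that these ends bound. By that choice of ends no call lies outside. There, 8 tested genes lay before the first and 31 after the last called gene, and 2 and 0 of them had an unadjusted p under 0.05. In the whole sequence, DESeq2 called 16 genes in place of 11.

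**Figure D1:**
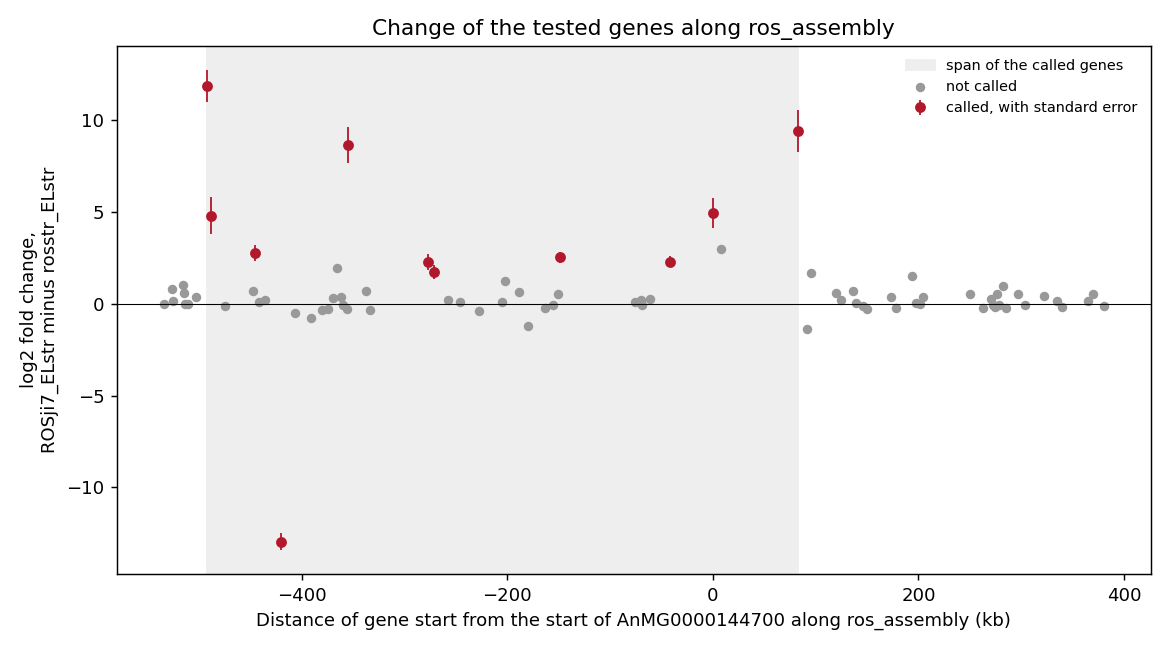
Change of the 80 tested genes along ros_assembly. The vertical axis gives the log2 fold change of ROSji7_ELstr over rosstr_ELstr, and the horizontal axis the distance of each gene start from that of AnMG0000144700 in kb. Red points with standard errors are the 11 called genes, grey points the others, and the shaded band runs by construction from the first to the last called gene, over 576.5 kb. Of the red points, 10 lie above 0 and 1 far below it.

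A pair of ros_assembly genes had reads in each library of a group and no read in the other group. AnMG0005277410 (ros_assembly 50042 to 51379, minus strand) had 14.4, 11.9 and 22.3 CPM in ROSji7_ELstr and 0 in each rosstr_ELstr library; set against 3 counts summed over the group, it was at least 611-fold higher (edgeR adjusted p 6.66e-06). AnMG0005279310 (121686 to 123759, plus strand) had 0 in each ROSji7_ELstr library and 33.9, 31.0 and 38.7 CPM in rosstr_ELstr, at least 1140-fold lower (edgeR adjusted p 4.95e-06). The levels of the first did not follow ROS dominance across genotypes, since it averaged 7.62 CPM in ROSji7_elji7 but 0.0902 in ROSpse_elpse and 0.0778 in ROSpse_ELstr. The second was at 0 in ROSji7_elji7, ROSpse_elpse and ROSpse_ELstr, and averaged 28.0 CPM in the pale rosrec_elpse and 0.0200 in rosdor_eldor.

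AnMG0000144700 (541660 to 544383, plus strand) had 58.6, 57.8 and 77.7 CPM in ROSji7_ELstr and 2.72, 1.80 and 1.72 CPM in rosstr_ELstr. The groups lie far apart (log2 fold change 4.95, SE 0.82, edgeR adjusted p 0.00749). Of the 12 alternatives, 11 kept the call, and the fit of the middle number series alone lost it at an edgeR adjusted p of 0.164. In the other genotypes it averaged 27.6 ± 25.3 CPM in ROSji7_elji7, 27.8 ± 19.0 in ROSpse_elpse, 40.4 ± 16.0 in ROSpse_ELstr, 24.6 ± 5.66 in rosrec_elpse and 0.896 ± 0.817 in rosdor_eldor (SD, n = 3).

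AnMG0000146600 (624419 to 626533, minus strand) had 6.92, 7.83 and 30.85 CPM in ROSji7_ELstr and 0.0232, 0.0333 and 0 CPM in rosstr_ELstr. The ratio was 884, with a 95% counting interval of 244 to 7310, and the edgeR adjusted p 0.000445. The white rosdor_eldor plants were not low in it, at 47.4, 32.5 and 9.47 CPM, and ROSji7_elji7 averaged 6.05 CPM. ROSpse_elpse, ROSpse_ELstr and rosrec_elpse averaged 0.0868, 0.197 and 0.0548 CPM.

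Near the upstream end, AnMG0005869000 (53672 to 58009, minus strand) had 45.7, 19.8 and 162.9 CPM in ROSji7_ELstr and 2.30, 2.73 and 3.12 CPM in rosstr_ELstr. Its ROSji7_ELstr plants ranged widely, and its call (log2 fold change 4.81, SE 0.99, edgeR adjusted p 0.0234) was lost in the middle number series alone (edgeR adjusted p 0.217), without ROSji7_ELstr replicate 1 or 3 (0.0558 and 0.106) and without rosstr_ELstr replicate 1, 2 or 3 (0.108, 0.099 and 0.0862). AnMG0005870400 (96590 to 97658, minus strand) had 23.5, 18.8 and 20.9 CPM in ROSji7_ELstr and 3.18, 2.93 and 3.17 CPM in rosstr_ELstr (log2 fold change 2.77, SE 0.44, edgeR adjusted p 0.00573). It overlaps a gene on the opposite strand, and whether counting used strand is not given in the sources used here. AnMG0005874000 (186459 to 186680, minus strand) had 1.503, 1.94 and 1.81 CPM in ROSji7_ELstr and 0 in each rosstr_ELstr library, at least 64.8-fold higher (edgeR adjusted p 0.00109). It overlaps a gene on the same strand.

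The other called genes of the sequence changed less. AnMG0000133410 (393052 to 396940, minus strand) had 16.7, 13.3 and 11.4 CPM in ROSji7_ELstr and 2.74, 2.76 and 1.66 CPM in rosstr_ELstr, with an edgeR adjusted p of 0.000317. AnMG0000143300 (500322 to 501275, plus strand) had 86.7, 67.7 and 68.2 CPM in ROSji7_ELstr and 18.7, 12.7 and 13.6 CPM in rosstr_ELstr, with an edgeR adjusted p of 0.000445. These genes were called in each of the 12 alternatives, as were AnMG0005277410, AnMG0000146600, AnMG0005874000 and AnMG0005870400, and AnMG0005279310 was called in the 11 alternatives in which it was tested. Lower levels went with AnMG0000137700 (1.82 ± 0.459 CPM in ROSji7_ELstr against 0.368 ± 0.0260 in rosstr_ELstr) and AnMG0000137900 (2.30 ± 0.620 against 0.673 ± 0.286; SD, n = 3), whose calls were lost in 7 and 8 of 12 alternatives. AnMG0000137700 was lost without any 1 of the 6 libraries, at edgeR adjusted p of 0.0517 to 0.0843, and AnMG0000137900 without any 1 of them but rosstr_ELstr replicate 1, at 0.072 to 0.15.

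AnMG0000140810, on the same sequence at 714682 to 716427 on the minus strand, was not called. It had 13.9, 14.7 and 20.7 CPM in ROSji7_ELstr and 14.01, 13.1 and 10.8 CPM in rosstr_ELstr, and these values overlap (log2 fold change 0.38, SE 0.54, edgeR adjusted p 0.877). It averaged 18.1 CPM in ROSpse_ELstr, 4.36 in ROSji7_elji7, 4.55 in ROSpse_elpse, 4.601 in rosrec_elpse and 1.21 in rosdor_eldor. AnMG0000159200 of scaffold1195, at a mean of 0.0439 CPM over the libraries compared, was not called either (log2 fold change -2.615, edgeR adjusted p 0.449). On the whole of scaffold1195, 3 of 118 tested genes were called (2.54%, against 1.18% of all genes tested), 1 higher and 2 lower in ROSji7_ELstr. A pair of other genes of that sequence was not called. AnMG0001020400 averaged 37.5 ± 0.804 CPM in ROSji7_ELstr and 26.2 ± 12.8 in rosstr_ELstr (edgeR adjusted p 0.762), and 27.9 in ROSpse_ELstr against 2.55 or less in the other 4 genotypes. AnMG0001020200 averaged 4.24 ± 0.179 CPM in ROSji7_ELstr and 2.83 ± 1.45 in rosstr_ELstr (SD, n = 3; edgeR adjusted p 0.861).

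**Figure D2:**
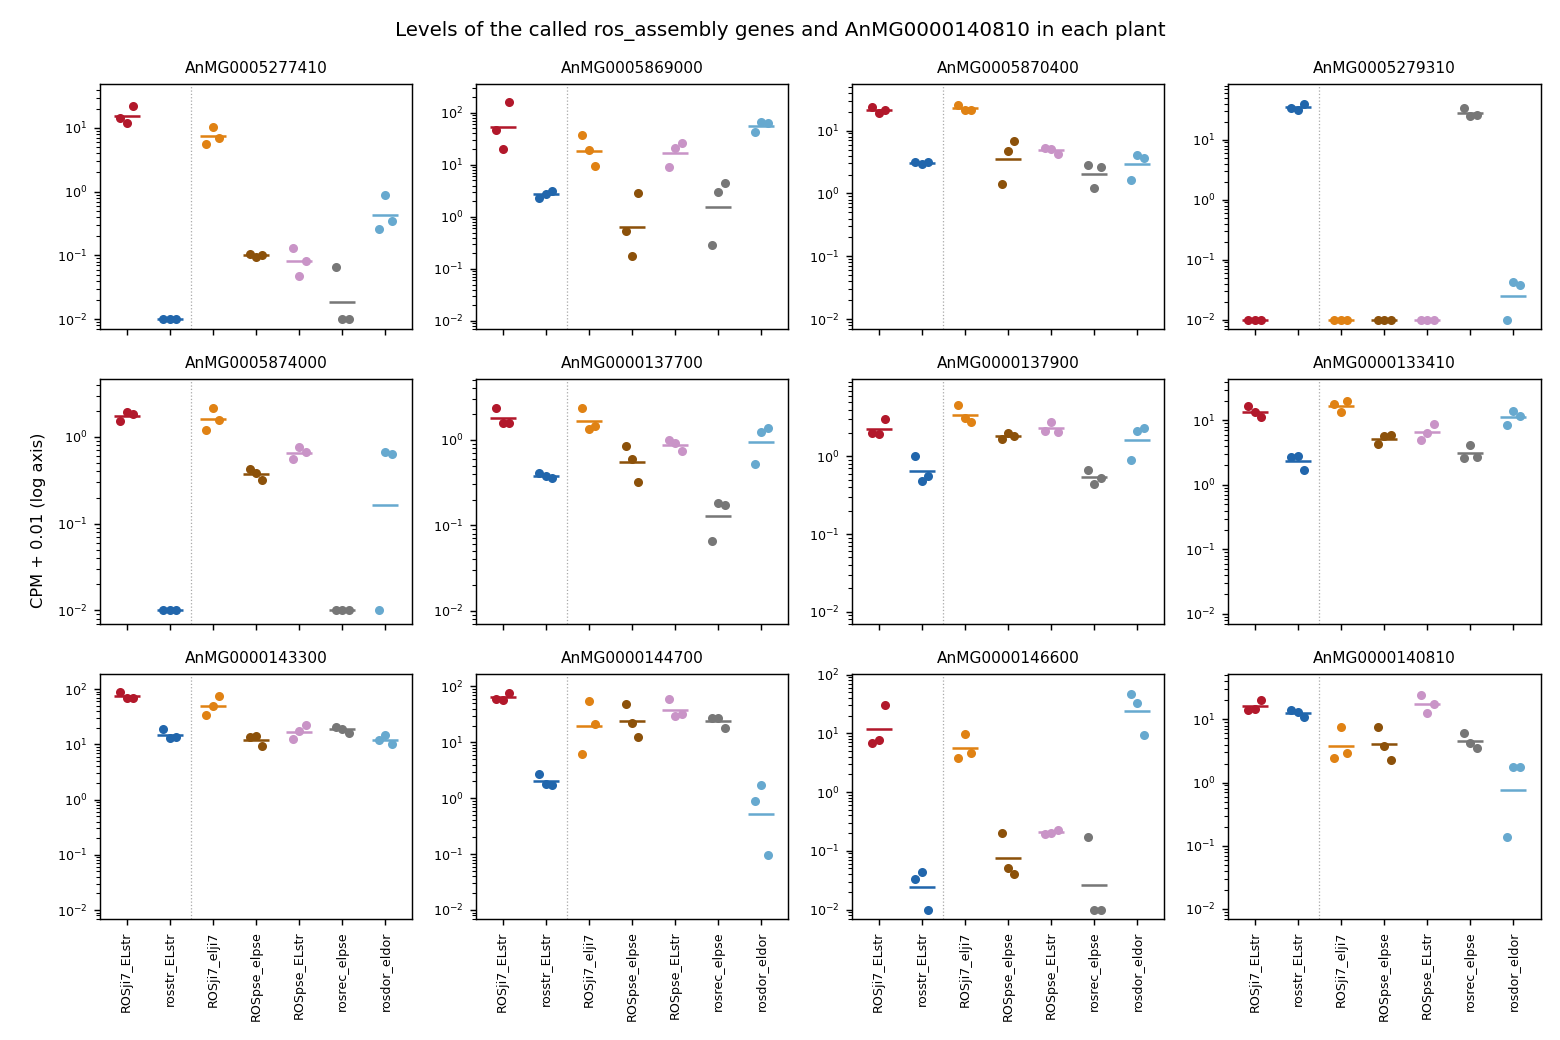
Levels of the 11 called ros_assembly genes and AnMG0000140810 in each plant, as CPM + 0.01 on a log axis. Each point is 1 plant, each bar the mean on the log scale of 3 plants, and the dotted line separates ROSji7_ELstr and rosstr_ELstr from the other 5 genotypes. AnMG0005279310 is high in rosstr_ELstr and rosrec_elpse, and AnMG0000146600 is high in ROSji7_ELstr, ROSji7_elji7 and rosdor_eldor.

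Among the 291 called genes, the other 5 genotypes were each set nearer to the ROSji7_ELstr or the rosstr_ELstr mean on the log2 CPM scale. In 55 genes (18.9% of the called and 7.02% of the tested genes), ROSji7_elji7 alone lay nearer to ROSji7_ELstr, so that both JI7 genotypes stood apart. Of these, 49 were lower and 6 higher in ROSji7_ELstr, and 11 lay on scaffold460, 5 on scaffold1274 and 3 on ros_assembly. In 22 genes (7.56% and 3.19%), only ROSpse_ELstr lay nearer to ROSji7_ELstr, so that both eluta genotypes stood apart. In 35 genes (12.0% and 9.02%), all 5 lay nearer to ROSji7_ELstr, so that rosstr_ELstr stood alone. ROSji7_ELstr itself stood alone in 12 genes (4.12% and 8.37%). The groups were formed from the values, so their levels are a description. A genotype just past the midpoint counts as nearer, so standing apart or alone can rest on a small margin. In AnMG0002997600 of the 22 genes, mean log2 CPM was 3.80 in ROSji7_ELstr, 4.73 in ROSpse_ELstr, 4.95 in ROSji7_elji7 and 5.73 in rosstr_ELstr.

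**Figure D3:**
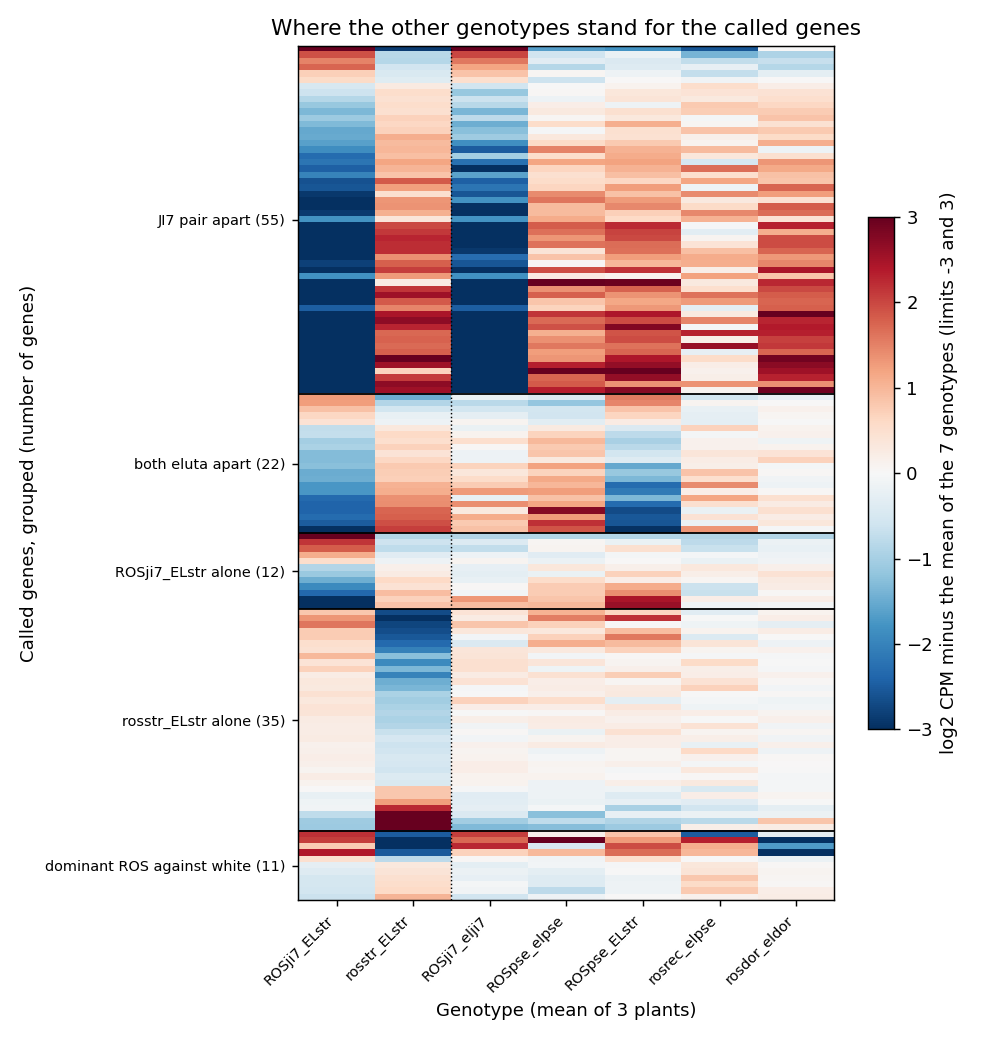
Called genes grouped by where the other genotypes stand, with 1 row per gene and 1 column per genotype (mean of 3 plants). Colour gives log2 CPM minus the mean of the 7 genotypes, with limits at -3 and 3, and the number in brackets the genes of a group. The 55 genes at the top are mostly low in ROSji7_ELstr and ROSji7_elji7, and the 35 genes near the bottom depart in rosstr_ELstr.

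Scaffold460 held 13 called genes among 89 tested (14.6%, against 1.18% of all genes tested), all lower in ROSji7_ELstr. Scaffold460 was picked for its many calls, among 387 sequences with 20 or more tested genes, so its share is a description. The median log2 fold change of its tested genes was -0.356, against 0.0137 over all genes tested. AnMG0000423700 (767047 to 784610, minus strand) had 0, 0.0329 and 0.0279 CPM in ROSji7_ELstr and 15.1, 6.39 and 6.18 CPM in rosstr_ELstr. The ROSji7_ELstr level was lower by a ratio of 476, with a 95% counting interval of 131 to 3940 (edgeR adjusted p 7.77e-05), and the gene overlaps others on both strands. AnMG0000432900 (481116 to 482853, minus strand) averaged 0.00930 ± 0.0161 CPM in ROSji7_ELstr and 3.26 ± 1.71 in rosstr_ELstr (SD, n = 3; edgeR adjusted p 0.000187). Close by, AnMG0000433400 and AnMG0000433100 had no read in any ROSji7_ELstr or ROSji7_elji7 library. AnMG0000421600 (884165 to 888263, plus strand) changed less, at 2.63 ± 0.0338 CPM in ROSji7_ELstr and 12.8 ± 2.23 in rosstr_ELstr (SD, n = 3; edgeR adjusted p 0.000128).

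Neighbouring genes on scaffold1274 were low together. AnMG0307021400 (362802 to 369006, plus strand) had 0.532, 0.559 and 0.781 CPM in ROSji7_ELstr and 77.2, 105.6 and 131.6 CPM in rosstr_ELstr (log2 fold change -7.38, SE 0.46, edgeR adjusted p 2.90e-07). AnMG0307021800, which overlaps it, had no read in ROSji7_ELstr and 6.28, 9.51 and 11.1 CPM in rosstr_ELstr, at least 288-fold lower. AnMG0307021200, next to them at 369013 to 369924, averaged 0.948 ± 0.289 CPM in ROSji7_ELstr and 21.8 ± 4.43 in rosstr_ELstr (SD, n = 3; edgeR adjusted p 7.29e-05).

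Of the 55 genes in which both JI7 genotypes alone stood apart, 6 were higher in ROSji7_ELstr. AnMG0000144600, at 1415 to 4296 of the sequence C8910231 on the minus strand, had 52.8, 58.0 and 45.2 CPM in ROSji7_ELstr and 11.3, 9.58 and 9.64 CPM in rosstr_ELstr (log2 fold change 2.35, SE 0.16, edgeR adjusted p 4.20e-07). ROSji7_elji7 averaged 55.7 ± 4.11 CPM in it, and the other 4 genotypes 11.2 to 14.6 CPM. The call was made in all 12 alternatives.

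A pair with no library in common, ROSji7_elji7 against rosdor_eldor, had 55 called genes (0.223% of those tested). Of these, 30 were also among the 291, all in the same direction, 6 higher and 24 lower, which is 10.3% of the 291 and 54.5% of the 55. Over the 291 genes, 209 (71.8%) had the same sign in that pair, against 55.6% of all genes tested. For AnMG0307021400, the pair gave -6.49 on the log2 scale (SE 0.45, edgeR adjusted p 6.92e-07), and for AnMG0000144600 it gave 2.28 (SE 0.16, edgeR adjusted p 6.92e-07). Of the 127 genes called between ROSpse_elpse and rosdor_eldor (0.515%), 13 were shared in the same direction and 5 in the opposite one, 4.47% of the 291 and 10.2% of the 127 for the same direction. A plant of that pair, rosdor_eldor replicate 3, is of family A182, as are the rosstr_ELstr plants, and lay nearer to rosstr_ELstr in 252 of the 291 genes (86.6%, against 66.9% of all tested genes). The part of family in the shared calls was not tested. ROSpse_ELstr against rosstr_ELstr shares the white libraries and had 112 calls (0.454%).

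**Figure D4:**
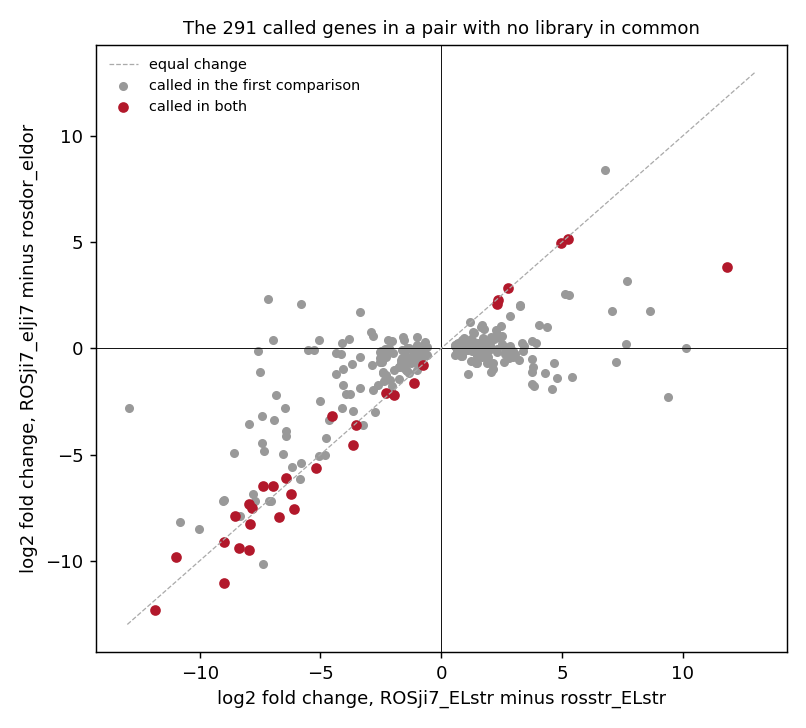
Log2 fold change of the 291 called genes, with ROSji7_ELstr over rosstr_ELstr on the horizontal axis and ROSji7_elji7 over rosdor_eldor, which shares no library with it, on the vertical axis. Red points are the 30 genes called in both pairs, all with the same sign in both. The farthest of them from the dashed line of equal change is AnMG0005277410, whose changes are 11.85 and 3.85. Others lie nearer to the line but off it, such as AnMG0001181400 at -8.98 and -11.04. Many grey points lie near 0 on the vertical axis.

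In the 22 genes that set both eluta genotypes apart, 17 were lower and 5 higher in ROSji7_ELstr, on 22 sequences. AnMG0001699300 (scaffold751 7186 to 12627, plus strand) had 4.57, 3.49 and 3.51 CPM in ROSji7_ELstr and 124.2, 215.0 and 111.4 CPM in rosstr_ELstr (log2 fold change -5.28, SE 0.84, edgeR adjusted p 0.00582). AnMG0005698800 (scaffold477 569047 to 573714, plus strand) had 7.51, 12.7 and 4.83 CPM in ROSji7_ELstr and 146.9, 226.7 and 137.6 CPM in rosstr_ELstr (edgeR adjusted p 0.00573). Both calls were lost in the middle number series alone, at edgeR adjusted p of 0.149 and 0.155. In ROSpse_ELstr the genes averaged 4.52 and 7.33 CPM. Among the higher genes, AnMG0000547800 (scaffold30 416446 to 419578) averaged 497.1 ± 232.4 CPM in ROSji7_ELstr and 70.1 ± 10.5 in rosstr_ELstr (SD, n = 3), with 578.0 in ROSpse_ELstr; its edgeR adjusted p of 0.0150 became 0.0714 without ROSji7_ELstr replicate 3, and 0.0701 and 0.0568 without rosstr_ELstr replicates 2 and 3.

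A single plant moved with this group. The white plant rosdor_eldor replicate 2 came from A174, the family of all 3 ROSpse_ELstr plants, and lay nearer to ROSji7_ELstr in 19 of the 22 genes, while rosdor_eldor replicates 1 and 3, of families A181 and A182, did so in 0 and 0. Over all genes tested, replicates 1, 2 and 3 lay nearer to ROSji7_ELstr in 53.3%, 57.9% and 33.1%, and the mean of these plants was among the values that sorted the genes. In AnMG0001699300 the 3 rosdor_eldor plants had 67.6, 4.29 and 124.7 CPM, and in AnMG0005698800 they had 111.7, 10.6 and 140.4 CPM. The part of family in these differences was not tested.

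Where rosstr_ELstr stood alone, 28 genes were higher and 7 lower in ROSji7_ELstr, with 8 of the 35 on scaffold807 and 8 on scaffold121. On scaffold807, 9 of 57 tested genes were called (15.8%, against 1.18% of all genes tested), 8 of them higher. Like scaffold460, scaffold807 was picked for its many calls, so its share is a description. The median log2 fold change of its tested genes was 0.558, against 0.0137 over all genes tested. AnMG0001196610 (323364 to 327068, plus strand) had 26.1, 27.0 and 23.0 CPM in ROSji7_ELstr and 7.76, 6.69 and 9.80 CPM in rosstr_ELstr (log2 fold change 1.65, SE 0.23, edgeR adjusted p 0.00179). On scaffold121, 13 of 261 tested genes were called (4.98%, against the same 1.18%), 12 of them higher, and the median was 0.345. AnMG0006872600 (425008 to 429625, minus strand) had 63.0, 50.0 and 25.5 CPM in ROSji7_ELstr and 5.32, 7.59 and 11.4 CPM in rosstr_ELstr (edgeR adjusted p 0.000817).

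A further plant of the white plants' family was set against them. Beside the 252 called genes (86.6%) in which rosdor_eldor replicate 3 of family A182 lay nearer to rosstr_ELstr, replicates 1 and 2 did so in 168 (57.7%, against 46.7% of all tested genes) and 127 (43.6%, against 42.1%). In the 35 genes where rosstr_ELstr stood alone, replicates 1, 2 and 3 lay nearer to ROSji7_ELstr in 33 (94.3%), 34 (97.1%) and 15 (42.9%), against 53.3%, 57.9% and 33.1% of all tested genes. These genes were sorted by the mean of the same 3 plants, which had to lie nearer to ROSji7_ELstr. The part of family in these counts was not tested.

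**Figure D5:**
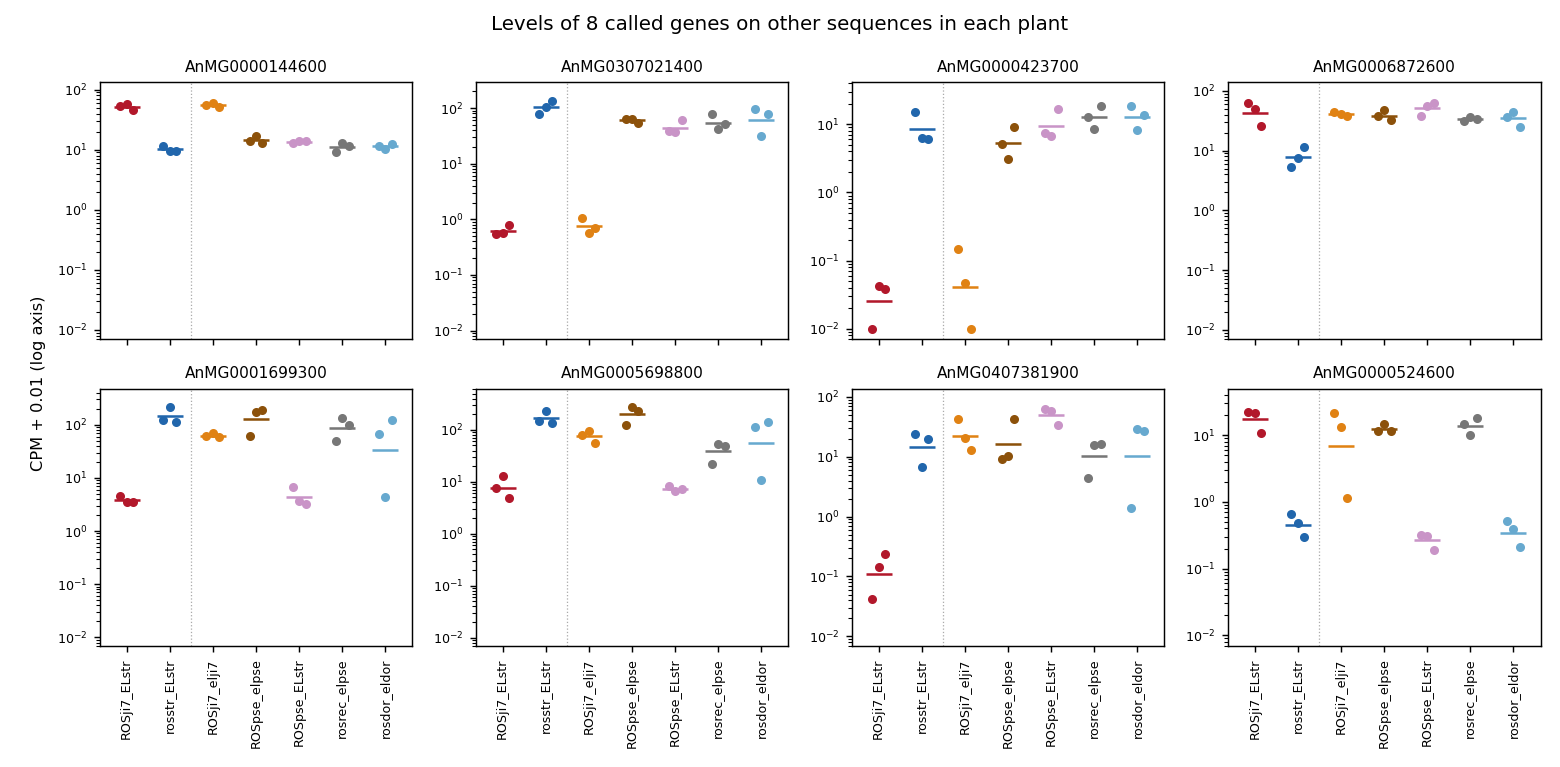
Levels of 8 called genes outside ros_assembly in each plant, as CPM + 0.01 on a log axis. Points are plants and bars means on the log scale of 3 plants, with ROSji7_ELstr and rosstr_ELstr left of the dotted line. AnMG0307021400 and AnMG0000423700 are low in both JI7 genotypes, and AnMG0001699300 and AnMG0005698800 are low in both eluta genotypes and in rosdor_eldor replicate 2.

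ROSji7_ELstr differed alone in few genes, 5 higher and 7 lower. AnMG0004433810 (scaffold205 172858 to 173466, minus strand) had 4.92, 4.28 and 5.50 CPM in ROSji7_ELstr and no read in any library of rosstr_ELstr or the other 5 genotypes. It passed the filter on low counts through the 3 ROSji7_ELstr libraries alone, so its levels are a description. DESeq2 did not call it, and it could be tested in 8 of the 12 alternatives. On scaffold194, the neighbours AnMG0407381900 (0.129 ± 0.0959 CPM in ROSji7_ELstr, 16.8 ± 8.94 in rosstr_ELstr; SD, n = 3; edgeR adjusted p 0.00762) and AnMG0407381800 (0.0279 ± 0.0483 CPM in ROSji7_ELstr, 6.62 ± 3.35 in rosstr_ELstr) were both lower. Each was lost without ROSji7_ELstr replicate 1, at edgeR adjusted p of 0.0558 and 0.0663. AnMG0005423200 (scaffold174 2058996 to 2064537) averaged 24.2 ± 5.63 CPM in ROSji7_ELstr and 8.81 ± 0.179 in rosstr_ELstr (SD, n = 3; edgeR adjusted p 0.000588), against 8.87 to 10.8 CPM in the other genotypes.

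In 11 called genes (3.78%, against 3.92% of the tested genes), ROSji7_elji7, ROSpse_elpse and ROSpse_ELstr lay nearer to ROSji7_ELstr, and rosdor_eldor nearer to rosstr_ELstr. They included AnMG0000144700 and AnMG0005874000 of ros_assembly, 3 genes of scaffold743 and 2 of scaffold1363. In AnMG0005874000 the CPM means did not separate in this way, at 0.430 ± 0.373 in rosdor_eldor and 0.370 ± 0.0563 in ROSpse_elpse (SD, n = 3). Replicates 1, 2 and 3 of rosdor_eldor lay nearer to ROSji7_ELstr in 6, 10 and 1 of the 11 genes. Replicate 3 is of family A182, as are the rosstr_ELstr plants, and the part of family in this group was not tested. AnMG0008107300 (scaffold1533 330318 to 332780) had 69.9, 80.8 and 37.0 CPM in ROSji7_ELstr and 0.442, 0 and 0.396 CPM in rosstr_ELstr. Its rosdor_eldor plants had 0, 21.6 and 0 CPM, and its edgeR adjusted p of 0.0356 ranged over the alternatives from 0.000249 to 0.236, with 8 of 12 calls lost, among them those without any 1 of the 6 libraries (0.0765 to 0.132).

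A further 25 called genes (8.59%, against 2.03% of the tested genes), 10 higher and 15 lower in ROSji7_ELstr, had ROSji7_elji7, ROSpse_elpse and rosrec_elpse nearer to ROSji7_ELstr, with ROSpse_ELstr and rosdor_eldor nearer to rosstr_ELstr. AnMG0000524600 (scaffold1047 110939 to 123645, minus strand), which overlaps genes on the same strand, had 22.5, 21.8 and 10.6 CPM in ROSji7_ELstr and 0.651, 0.466 and 0.291 CPM in rosstr_ELstr (log2 fold change 5.27, SE 0.75, edgeR adjusted p 0.00202). It averaged 0.264 CPM in ROSpse_ELstr and 0.362 in rosdor_eldor, but 12.7 in ROSpse_elpse and 14.3 in rosrec_elpse, so its level did not go with flower colour. The ROSji7_elji7 plants had 21.2, 13.15 and 1.12 CPM, and the call was lost in the middle number series alone, at an edgeR adjusted p of 0.104.

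Other genes with large rises lay outside ros_assembly. AnMG0001637400 (scaffold1096) averaged 48.9 ± 3.77 CPM in ROSji7_ELstr and 0.344 ± 0.248 in rosstr_ELstr (SD, n = 3; edgeR adjusted p 0.0139), and it overlaps genes on the same strand. AnMG0207956200 (scaffold663) had 43.2, 59.5 and 23.2 CPM in ROSji7_ELstr and 1.05, 0.0333 and 0 CPM in rosstr_ELstr (edgeR adjusted p 0.0240), and AnMG0006203300 (scaffold883) had 3.91, 17.7 and 49.1 CPM in ROSji7_ELstr and 0, 0 and 0.449 CPM in rosstr_ELstr (edgeR adjusted p 0.0226). They were called in 9, 6 and 6 of 12 alternatives. The call of AnMG0001637400 was lost without rosstr_ELstr replicate 2 or 3 (edgeR adjusted p 0.0681 and 0.0568). That of AnMG0207956200 was lost without any 1 of the 6 libraries but rosstr_ELstr replicate 1 (0.0541 to 0.101), and that of AnMG0006203300 without ROSji7_ELstr replicate 2 or 3 or rosstr_ELstr replicate 1 or 2 (0.0534 to 0.0987). AnMG0006381100 and AnMG0006021300 also rose, with 6 and 2 calls of 12, and lost them without any 1 of the 6 libraries, except AnMG0006381100 without ROSji7_ELstr replicate 2.

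The large falls were mostly shared with the magenta JI7 plants. AnMG0003632610 (scaffold272) had no read in any ROSji7_ELstr or ROSji7_elji7 library and 19.9, 16.8 and 12.6 CPM in rosstr_ELstr, at least 543-fold lower (edgeR adjusted p 0.0199), and its call was lost without ROSji7_ELstr replicate 1, 2 or 3 and without rosstr_ELstr replicate 2. AnMG0001181400 (scaffold1539) averaged 0.00930 ± 0.0161 CPM in ROSji7_ELstr and 7.32 ± 3.59 in rosstr_ELstr (SD, n = 3; edgeR adjusted p 1.27e-05), and was called in all 12 alternatives. AnMG0002713300, AnMG0808967400, AnMG0005049300, AnMG0406926900, AnMG0000394000 and AnMG0907874610 averaged 0.270 CPM or less in both JI7 genotypes. The last of these was at 12.6, 32.7 and 0.106 CPM in rosstr_ELstr, so that its replicate 3 came near the ROSji7_ELstr values of 0, 0 and 0.0279 CPM.

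The 5 most abundant called genes were 4 higher and 1 lower in ROSji7_ELstr. AnMG0006051800 (scaffold1376 667814 to 669004) averaged 1844 ± 299.3 CPM in ROSji7_ELstr and 233.0 ± 78.6 in rosstr_ELstr (SD, n = 3; edgeR adjusted p 0.0122), and its call was lost without rosstr_ELstr replicate 2 (0.0628). Its rosdor_eldor plants had 648.9, 1989 and 246.0 CPM. AnMG0004363300 (scaffold95 677392 to 680298) was lower, at 1172 ± 277.5 CPM in ROSji7_ELstr and 3237 ± 685.2 in rosstr_ELstr (edgeR adjusted p 0.0234), and its call was lost without any 1 of the 6 libraries but rosstr_ELstr replicate 1 (0.0627 to 0.115). AnMG0006196600, AnMG0002964300 and AnMG0005959100 were higher, with edgeR adjusted p of 0.0456, 0.0476 and 0.0252 and calls in 4, 2 and 6 of 12 alternatives. The calls of AnMG0006196600 and AnMG0002964300 were lost without any 1 of the 6 libraries, at edgeR adjusted p of 0.083 to 0.159 and of 0.0752 to 0.186, and that of AnMG0005959100 without any 1 of them but rosstr_ELstr replicate 1, at 0.0769 to 0.119.

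The difference between ROSji7_ELstr and rosstr_ELstr was also set against that between ROSji7_elji7 and rosdor_eldor, in an interaction term of the same edgeR fit. The pairs differ in EL, in the source of recessive ros and in the family of most plants, and these cannot be told apart. The term called 6 genes (0.0243% of those tested), and 2194 (8.89%) had an unadjusted p under 0.05. The 6 were AnMG0000146600 and AnMG0005277410 of ros_assembly, AnMG0004724400 and AnMG0004746500 of scaffold1088, AnMG0005864900 of scaffold593 and AnMG0006295200 of scaffold2918. No gene was called in the fit of those 4 groups alone (0 by edgeR) or in the middle number series alone, and DESeq2 called 197. Without rosdor_eldor replicate 3 the count was 57, without rosstr_ELstr replicate 3 it was 19, without rosstr_ELstr replicate 1 it was 2 and without ROSji7_elji7 replicate 1 it was 10.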

How the data were processed

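Each of the 21 libraries has 1 deposited Salmon table, in which the authors give an estimated count (expected count) per transcript, for 51926 transcripts, before any normalisation. The submitters' processing notes name cutadapt 1.16, Salmon 0.9.1 and DESeq2. The deposited TPM entered no test. The authors' alignment score in a deposited placement file chose the position of each gene on the JICv1 assembly, as the highest-scoring one. Transcript counts were summed to 37234 genes and rounded. Whether strand was used is not given in the sources used here.

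Genes were tested in edgeR 4.0.16 (quasi-likelihood F, R 4.3.3, TMM) with 1 mean per genotype over all 21 libraries. It ran on the 24674 genes that reached 0.5 CPM in 3 or more libraries, and a Benjamini-Hochberg adjusted p below 0.05 made a call. A standard error is the size of the log2 fold change over the root of F. CPM values are read counts scaled to 1e6 per library by the TMM-scaled total. For a group without reads the fold is a bound set by 3 counts summed over that group, and for 1 to 3 counts it is a ratio with its exact 95% interval, both covering counting error only. The p-values measure the spread between plants within genotypes, estimated over all 21 libraries. These include the rosdor_eldor plants, which come from families A181, A174 and A182. Alternatives were DESeq2 1.42.0, its size factors, no low-count filter, only the groups compared, the library number series (numbers below 3000 are low, above 8000 high) as a term, its middle part alone, and each library left out. The procedure was tested on simulated data. There, edgeR recovered 67% of the changes with an estimated median log2 size of 2.003, and 11% of those set smaller. A gene that was not called can therefore still differ.

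The members, lists and rules were chosen with earlier results of these data known. The rule names the 10 largest rises and 10 largest falls without overlap that average at least 1 CPM in the higher group, all called ros_assembly genes, 7 genes of earlier results, calls shared with ROSji7_elji7 against rosdor_eldor, and the 5 most abundant calls. Other named genes, and the sequences described besides ros_assembly and scaffold1195, were chosen after their values were seen. Pigment gene and cell type marker lists could not be matched to IDs and were not run.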

Additional observations from a re-analysis of the deposited data

Results flagged for a closer look

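The difference between ROSji7_ELstr and rosstr_ELstr was set against that between ROSji7_elji7 and rosdor_eldor in 1 interaction term of the edgeR fit. The second pair carries recessive el alleles of the stock lines JI7 and rosea-dorsea. Its white plants also carry ros of rosea-dorsea in place of *striatum*, and most plants of the pairs differ in family. The term cannot tell EL apart from these. The 6 genes below differed between the pairs at an adjusted p under 0.05. AnMG0000146600 gave the interaction 11.70 on the log2 scale (edgeR adjusted p 0.00269), with 15.2 CPM in ROSji7_ELstr and 0.0188 in rosstr_ELstr, but 6.05 in ROSji7_elji7 and 29.8 in rosdor_eldor. AnMG0005277410 gave 8.01 (edgeR adjusted p 0.0144), with 16.2 and 0 CPM in the first pair, and 7.62 and 0.494 in the second.

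AnMG0004746500 (scaffold1088) gave -7.89 (edgeR adjusted p 0.00269), with 0.0290 CPM in ROSji7_ELstr and 1.93 in rosstr_ELstr, but 3.82 in ROSji7_elji7 and 0.867 in rosdor_eldor. AnMG0004724400, on the same sequence, gave -5.10 (edgeR adjusted p 0.0251), with 0.128 CPM in ROSji7_ELstr, 1.34 in rosstr_ELstr, 0.951 in ROSji7_elji7 and 0.297 in rosdor_eldor. AnMG0005864900 (scaffold593) gave 1.81 (edgeR adjusted p 0.0414), with 23.5 CPM in ROSji7_ELstr, 5.88 in rosstr_ELstr, 23.7 in ROSji7_elji7 and 20.8 in rosdor_eldor. AnMG0006295200 (scaffold2918), which overlaps a gene on the same strand, gave 2.32 (edgeR adjusted p 0.0337), with 22.2 CPM in ROSji7_ELstr, 10.3 in rosstr_ELstr, 8.09 in ROSji7_elji7 and 18.7 in rosdor_eldor.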

How the results depend on the processing

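Against 291 calls (134 higher, 157 lower), DESeq2 gave 1119 (542 higher, 577 lower), the fit of the groups compared alone 792 (302 and 490), and the middle number series alone 65 (21 and 44), with 6 ros_assembly genes against 11. With the series as a term there were 410 calls, of which 237 were among the 291, and 205 genes were higher. Leaving out 1 library gave 76 to 190 calls, 33 to 89 higher and 29 to 101 lower. The 6 interaction calls became 197 with DESeq2, 0 in the fit of the 4 groups alone and 0 in the middle series, and 2 to 57 with 1 library left out: 57 without rosdor_eldor replicate 3, 19 without rosstr_ELstr replicate 3 and 10 without ROSji7_elji7 replicate 1. The causes were not tested. Over 2035 values of named genes under an alternative, 1263 kept their direction and side of the threshold, 772 fell short of it, and 0 turned round. Most of these genes were picked for their changes and the alternatives reuse the same libraries, so these counts are a description. No paired analysis was possible because no label ties a ROSji7_ELstr plant to a rosstr_ELstr plant. Depth limits genes with under 0.1 CPM, and each group holds 3 plants.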
